A study of Mus musculus with 48 samples.

Results

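The stroke response of astrocytes was measured as the difference between 6 libraries of astrocytes sorted from the ipsilateral (ischemic) hemisphere and 6 from the contralateral hemisphere, over every gene whose normalized counts averaged 10 or more in these 12 libraries. This rule kept 15264 of the 24973 genes of the deposited table, and the 12 libraries are part of 48 in the series, which also covers endothelial cells, pericytes and microglia. The rule used the level of a gene and not its difference between hemispheres. The lowest mean kept was 10 and the highest left out was 9.92. Of the 9709 genes left out, 942 were at 0 in all 12 libraries.

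All mice were male C57BL/6 wild-type animals of 12 to 15 weeks that underwent transient middle cerebral artery occlusion (tMCAO), in which a filament blocked the right middle cerebral artery for 1 h, followed by 23 h of reperfusion. Brains were taken 24 h after the occlusion, and animals with a low neurological deficit score had been left out of the study. Each library came from a pool of 3 to 4 mice, and libraries with the same replicate number came from the 2 hemispheres of the same pool, so that the spread between single mice is not measured. The control is the contralateral hemisphere of mice with a stroke, and healthy or sham-operated mice were not analysed here. Astrocytes were sorted as live cells that were negative for CD45, NG2, PDGFRβ and VE-cadherin and high for ACSA2, the protein made from *Atp1b2*.

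Astrocytes clear glutamate and potassium, supply neurons with metabolites and wrap blood vessels with endfeet. After injury they become reactive: they raise intermediate filament genes such as *Gfap*, respond to cytokines through receptors that activate Stat3, and release matrix proteins, protease inhibitors and trophic factors. Oxidative stress acts on them through the factor Nrf2, which induces antioxidant enzymes.

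The label was first set against the markers. *Slc1a3*, the glutamate transporter GLAST, lay between 44740 and 78661 normalized counts in contralateral and between 24988 and 75867 in ipsilateral libraries. *Aqp4*, the water channel of the endfeet, spanned 5623 to 15696 and 4582 to 16784, and *Aldh1l1* spanned 4075 to 10807 and 2720 to 9490. All 3 markers were present in all 12 libraries with overlapping groups, and neither fit called them. *Gfap* is described with the reactive genes below. RNA of other cells was present too. The summed counts of 10 oligodendrocyte markers ranged from 50180 to 413622 in contralateral and from 87805 to 482695 in ipsilateral libraries, and those of 10 microglial markers from 2526 to 43339 and from 1777 to 36654. Microglial markers made up a share of 0.343 to 0.468% of their level in microglial libraries in ipsilateral replicates 5 and 6, and of 1.69 to 10.2% in ipsilateral replicates 1 to 4. Contralaterally these shares were 0.362 to 0.469% and 0.767 to 6.4%. Neutrophil markers summed to 38 to 1531 contralaterally and 261 to 5513 ipsilaterally, monocyte and macrophage markers to 38 to 1334 and 285 to 3088, and both sums were higher ipsilaterally in 6 of 6 pairs. The spacing of the values gave 10500000 to 16200000 reads on genes per library, with 1 read worth 0.702 to 1.11 normalized counts. The other marker sums overlapped between hemispheres, although by pairs the pericyte sum was lower ipsilaterally in 6 of 6 pools and the endothelial sum in 5 of 6. Endothelial sums ranged from 452 to 5205 contralaterally and 551 to 4911 ipsilaterally, pericyte sums from 2109 to 18121 and 1587 to 9110, neuronal sums from 1071 to 5346 and 1232 to 7745, sums of oligodendrocyte precursors from 3698 to 18849 and 5696 to 18520, ependymal sums from 5964 to 24026 and 2381 to 27393, red cell sums from 1689 to 19014 and 2075 to 8541, and T cell sums from 9 to 71 and 19 to 133. Of all these markers with a row in the table, 1 T cell gene was at 0 in every library. In the neutrophil list *S100a8*, *S100a9* and *Cxcr2* rose with the block, in the monocyte list *Lyve1* rose in both fits, and in the ependymal list *Ccdc153* and *Rarres2* fell with the block, whereas the other 8 marker lists had no call in either fit. In bulk libraries, fewer cells of a type and less RNA per cell cannot be told apart.

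**Figure D1:**
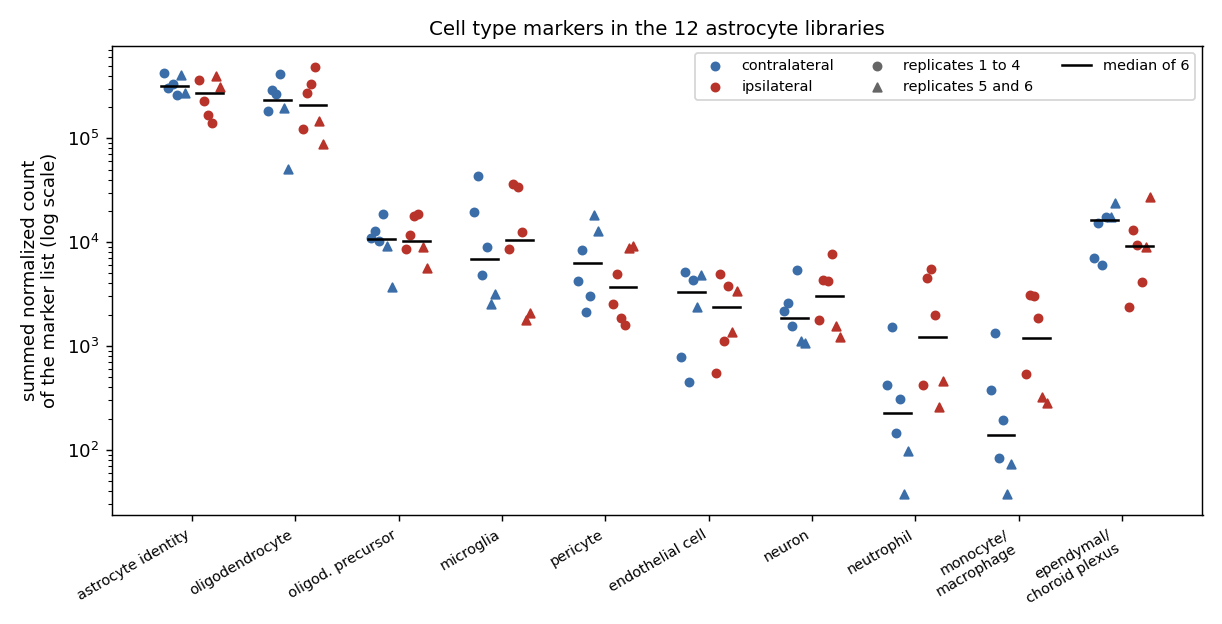
Summed normalized counts (log scale) of the marker genes of each cell type in the 12 astrocyte libraries, with 1 point per library. Oligodendrocyte sums reached 482695, and the neutrophil and monocyte sums were higher in the ipsilateral library of all 6 pairs.

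The first question is how many genes differed between the hemispheres. Values were compared with limma on log2(normalized count + 1) with Benjamini-Hochberg adjustment, and a gene was called at an adjusted p of at most 0.05, a change of at least 1.5 times in either direction and more than 10 counts in all 6 libraries of at least 1 hemisphere. Without a term for the pool, 51 genes rose (0.334% of those tested) and 1 fell (0.00655%). With the pool as a replicate block, which is given beside it because both hemispheres came from the same mice, 191 rose (1.25%) and 51 fell (0.334%). All 51 genes that rose without the block were higher in 6 of 6 pairs, against 5.02% of all genes tested, and in 46 of them the groups did not overlap, against 0.655% of all genes tested. Their median log2 fold change was 2.90, beside -0.06 over all genes tested. Of all 15264 genes tested, 6780 had a positive and 8484 a negative log2 fold change. An unadjusted p under 0.05 was reached by 1416 of them without the block and by 2684 with it. The calls changed when 1 pool was left out, which also leaves fewer libraries. Leaving out 1 replicate number gave 12 to 60 higher calls without the block and 63 to 172 with it, and 9 of the 52 genes called without the block kept their call whichever pool was left out: *Fga*, *Hmox1*, *Lcn2*, *Rhoj*, *Slc10a6*, *Slc7a1*, *Srxn1*, *Tubb6* and *Ucn2*. With the block, 57 of the 242 calls were kept whichever pool was left out.

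**Figure D2:**
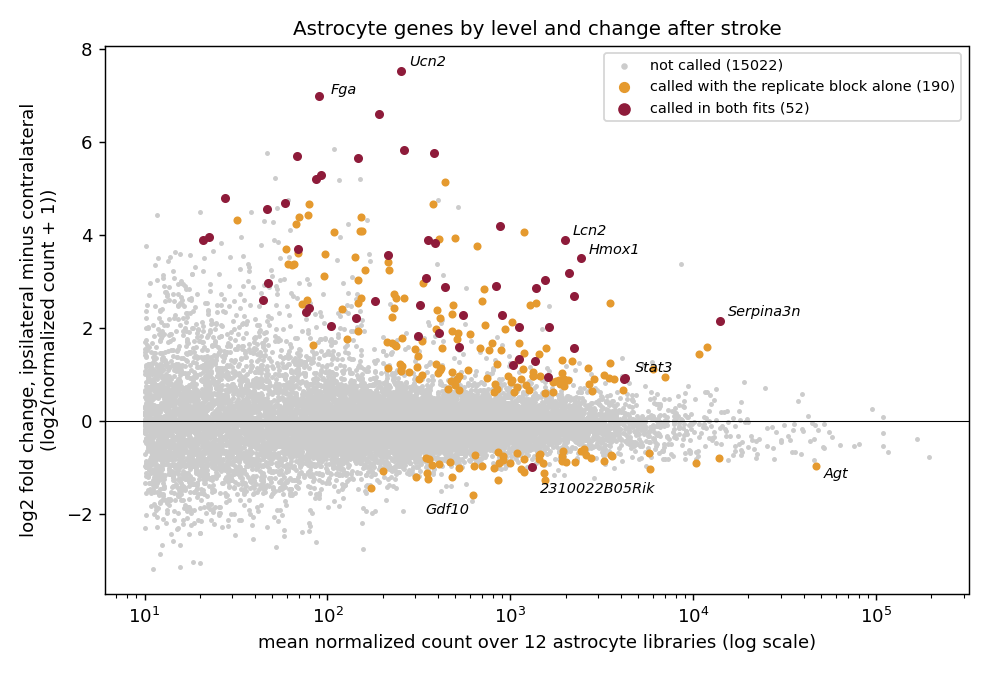
Mean normalized count over the 12 astrocyte libraries (log scale) against the log2 fold change, ipsilateral minus contralateral, for the 15264 genes tested. The 52 genes called without the replicate block and the 190 called with it alone are marked apart from the 15022 called in neither, and almost all of the 52 lie above 0.

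RNA from other sorted cells was set beside each result as an expected level, obtained by multiplying the marker share of microglia, endothelial cells and pericytes by the gene's level in the library of that cell type, replicate and hemisphere. For the ipsilateral pericyte and microglia libraries the labels give conflicting cell types, and the one that goes with the column name was used. Neutrophils, monocytes and oligodendrocytes were not sorted, so no expected level could be had for them. Of the 51 genes that rose without the block, 47 were above 2 times the expected level in 6 of 6 ipsilateral libraries, as were 157 of the 191 with the block. So were 49 of the 51 genes that fell with the block, so that passing this level was not particular to genes that rose. The share over all genes tested is not given here. After the expected levels were subtracted, the fit with the block called 36 of the 51, 97 of the 191, and 18 of the 51 genes that fell with the block. Negative results of the subtraction were raised to the floor of the scale, which can enlarge a log2 fold change. The part of RNA from unsorted cell types in these differences was not tested.

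The lowest p-value belonged to *Hmox1* (chromosome 8, 75093621 to 75100589, plus strand, GRCm38), the heme-degrading enzyme heme oxygenase 1. It had 190, 422 and 667 normalized counts (lowest, median and highest) contralaterally and 3746, 4219 and 5367 ipsilaterally. Every ipsilateral library lay far above every contralateral one and above 2 times its expected level. The log2 fold change was 3.49 ± 0.27 (SE, n = 6 per side), with a limma adjusted p of 5.1e-05 and of 0.000237 with the block. Each SE printed with a fold change within astrocytes is that of the fit without the block. This holds also for genes that passed with the block alone, where the SE does not belong to the p of the block. *Srxn1* (chromosome 2, 152105524 to 152111376, plus strand), which encodes sulfiredoxin and restores oxidized peroxiredoxins, went from 232, 424 and 576 to 2066, 3676 and 5787. Its groups did not overlap, and it rose by 3.17 ± 0.29 on the log2 scale (limma adjusted p = 0.000182, with the block 0.000806). *Txnrd1*, a thioredoxin reductase, went from 380, 612 and 851 to 1249, 1367 and 1698, again without overlap, and rose by 1.21 ± 0.19 (limma adjusted p = 0.0169, with the block 0.00496). The other targets of Nrf2 did not share this. Of 14 on the list, 3 rose without the block, the fit with the block added a fall of the glutathione transferase *Gsta4*, and the median log2 fold change was 0.15 beside -0.06 over all genes. *Nqo1*, picked here as a textbook target, had a log2 fold change of -0.48 ± 0.29 (limma adjusted p = 0.657), and *Gclm*, a subunit of the enzyme that starts glutathione synthesis, had 0.17 ± 0.20 (limma adjusted p = 0.848).

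The promoter of *Srxn1* is shown because the gene was among the 9 calls kept without any single pool and the stretch holds matches of motifs linked to this stress. It is taken from RefSeq on GRCm38, chr2:152105274-152105573, plus strand, and runs from 250 bases before to 50 after the start. Capitals mark AP-1 motifs (TGANTCA) at -102 to -96 and -45 to -39, and the core of the antioxidant response element (TGACNNNGC, here on the minus strand) at 28 to 36. A TGANTCA match can overlap a match of the second motif where the letters run on, and matches are a description of letters, not of binding.
Srxn1: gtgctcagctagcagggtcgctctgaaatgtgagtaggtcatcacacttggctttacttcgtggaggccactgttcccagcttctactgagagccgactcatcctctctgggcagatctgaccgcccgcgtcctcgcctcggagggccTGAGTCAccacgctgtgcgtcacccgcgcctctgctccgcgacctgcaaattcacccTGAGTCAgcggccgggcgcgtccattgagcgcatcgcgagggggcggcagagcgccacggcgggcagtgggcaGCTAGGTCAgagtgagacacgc

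**Figure D3:**
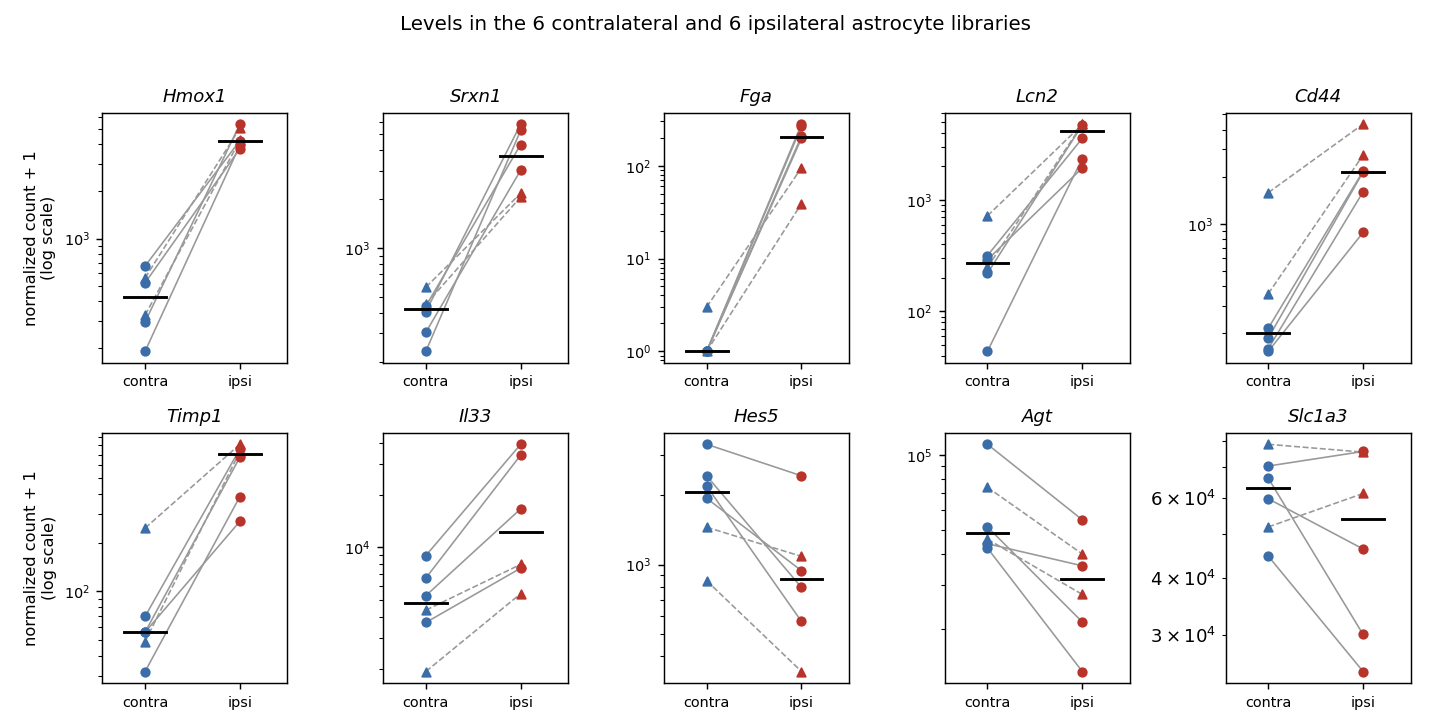
Normalized count + 1 (log scale) of 10 genes in each astrocyte library, with lines joining the hemispheres of a pool, circles for replicates 1 to 4, triangles and dashed lines for replicates 5 and 6, and bars for the medians. *Hmox1*, *Srxn1*, *Fga* and *Lcn2* do not overlap between hemispheres, whereas contralateral replicate 6 of *Cd44* (1580) reaches the ipsilateral range and *Slc1a3* overlaps throughout.

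Genes known from reactive astrocytes formed the next group. Of 13 pan-reactive genes, 4 rose without the block and 9 with it, none fell, and all 13 had a positive log2 fold change, with a median of 2.13. Of the 9, 8 were above 2 times the expected level in 6 of 6 libraries. After subtraction 6 of the 13 passed with the block. *Lcn2*, the secreted iron-siderophore carrier lipocalin 2, went from 43, 269 and 718 to 1931, 4110.5 and 4763 without overlap and rose by 3.89 ± 0.51 (limma adjusted p = 0.00379, with the block 0.000636). *Serpina3n*, a secreted serine protease inhibitor, had 2395, 4059 and 13914 contralaterally and 15027, 23061 and 25540 ipsilaterally. These groups did not overlap either, although contralateral libraries differed widely among themselves, and the gene rose by 2.15 ± 0.35 (limma adjusted p = 0.0178, with the block 0.00414). Its expected level from other sorted cells was at most 108.

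*Gfap* showed what the pairing does. It went from 2213, 3823 and 17352 to 8805, 10631 and 28937, was higher ipsilaterally in 6 of 6 pairs, and overlapped because contralateral replicates 5 and 6 were high. The log2 fold change of 1.43 ± 0.50 did not pass without the block (limma adjusted p = 0.402) and passed with it (0.0114). It was the 1 of 10 astrocyte identity genes that rose with the block. The other 9 had negative log2 fold changes and the list's median was -0.33. *Cd44*, a receptor for hyaluronan and osteopontin, went from 152, 199.5 and 1580 to 879, 2156 and 4336. Contralateral replicate 6 alone reached the ipsilateral range, and the gene rose by 2.85 ± 0.53 (limma adjusted p = 0.0393, with the block 0.000581). *Vim*, the vimentin filament gene, did not pass in either fit, with 0.74 ± 0.77 and an adjusted p of 0.827 without the block and 0.148 with it.

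Genes once grouped as A2 and A1 markers, from ischemic and inflammatory models, were counted apart. Of 12 A2 genes, 3 rose without the block and 9 with it, with a median log2 fold change of 3.38. Of the 9, 7 were above 2 times the expected level in 6 of 6 libraries. After subtraction 5 of the 12 passed with the block. *Ptx3*, a secreted pattern recognition protein, went from 15, 42.5 and 727 to 441, 764 and 4469, overlapping through contralateral replicate 6, and rose by 4.18 ± 0.82 (limma adjusted p = 0.0466, with the block 0.00145). *Sphk1*, the kinase that makes sphingosine 1-phosphate, went from 0, 17 and 216 to 531, 749 and 838 without overlap and rose by 5.75 ± 1.01 (limma adjusted p = 0.0269, with the block 0.00707). *Slc10a6*, a transporter of steroid sulfates, was the tightest of them, with 12, 58.5 and 96 against 567, 682 and 954. Its groups did not overlap, and it rose by 3.83 ± 0.40 (limma adjusted p = 0.000682, with the block 0.000581). Of 11 A1 genes tested, none passed without the block (4 had an unadjusted p under 0.05), and with the block *Srgn*, the proteoglycan serglycin, rose. The A1 median was 0.66. *Srgn* had 200, 876 and 2977 ipsilaterally, and its expected level from other sorted cells reached 3597 and lay below its measured level by over 2 times in only 2 of 6 libraries. The 2 lists were not tested against each other.

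Signals and their receptors were counted next. Of 19 cytokines and chemokines, 1 rose without the block and 6 with it, all 19 had a positive log2 fold change, and the median was 2.11. Of the 6, 2 were above 2 times the expected level in 6 of 6 libraries. None of the 6 passed after subtraction with the block, although several log2 fold changes stayed about as large: 2.72 after and 2.40 before for *Cxcl1* (limma adjusted p = 0.0561), 2.31 and 2.43 for *Ccl7* (0.0902) and 0.55 and 0.60 for *Csf1* (0.0779), against 1.51 and 3.70 for *Il6* (0.649). *Il1rn*, the antagonist of the interleukin 1 receptor, had 30, 265 and 1577 ipsilaterally beside an expected level of up to 1298, and was over 2 times that level in 3 of 6 libraries. *Il6* had 21, 83 and 195 beside up to 207, in 1 of 6 libraries, and *Ccl7* had 169, 348 and 594 beside up to 333, in 5 of 6. *Ccl7* rose with the block by 2.43 ± 0.66 (limma adjusted p = 0.0357, without the block 0.21), and *Il6* by 3.70 ± 0.99 (0.0474, without the block 0.197). Both were highest in ipsilateral replicate 6, where the monocyte sum was 285, the lowest of the 6 ipsilateral libraries, and the neutrophil sum was 458. The pericyte sum of that library was 9110, the highest of the 6, and *Il6* had a mean of 2605 in ipsilateral pericyte libraries. The part of RNA from these cells in *Il6* and *Ccl7* was not tested.

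Receptors and the Stat3 path were set beside the same expected levels, which hold no part for neutrophils and monocytes. Of 19 genes, 2 rose without the block and 5 with it, none fell, the median was 0.90, and all 5 passed after subtraction. *Tnfrsf12a*, the receptor of the cytokine TWEAK, went from 131, 290 and 1400 to 1458, 2606 and 4013 without overlap and rose by 3.03 ± 0.48 (limma adjusted p = 0.0159, with the block 0.00496). *Stat3* itself went from 1858, 2986 and 3746 to 4868, 5327 and 6047. Its groups did not overlap, the ipsilateral libraries were narrowly spread, and it rose by 0.90 ± 0.17 (limma adjusted p = 0.0395, with the block 0.00852). *Osmr*, the oncostatin M receptor, went from 132, 302 and 1284 to 808, 1876 and 3989 and rose with the block by 2.53 ± 0.53 (limma adjusted p = 0.000581, without it 0.0668). Its SE was 0.21 in the fit with the block. *Lypla2*, an enzyme that removes lipid anchors from proteins, belonged to no list and had 561, 788 and 1097 against 1626, 1793 and 2561, a log2 fold change of 1.28 ± 0.18 (limma adjusted p = 0.00728, with the block 0.00108). *Sbno2*, a transcriptional coregulator downstream of Stat3, and *Bcl3*, a partner of NF-κB subunits, rose in both fits. *Sbno2* had 228, 430.5 and 760 against 1171, 1783 and 2185, a log2 fold change of 2.01 ± 0.28. *Bcl3* had 39, 85 and 197 against 314, 506 and 983, a log2 fold change of 2.49 ± 0.38, with no overlap in either gene. Of 16 NF-κB genes, 1 rose without the block and 2 with it, the second being the adhesion molecule *Icam1*, and the median was 0.69.

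Transcription factors of the early response and growth arrest genes moved in part. Of 17 AP-1 and immediate early factors, 1 rose without the block and 2 with it, with a median of 1.21. *Fosl1*, an AP-1 subunit, went from 4, 52.5 and 352 to 401, 678 and 793 and rose by 3.88 ± 0.77 (limma adjusted p = 0.0466, with the block 0.0162). Contralateral replicate 6 held the 352 and came nearest to the ipsilateral range. All 6 ipsilateral libraries were at least 20.4 times above the expected level, and after subtraction the log2 fold change was 4.44 with an adjusted p of 0.0515 in the fit with the block. *Myc* went from 84, 199.5 and 451 to 337, 649 and 811 and rose with the block by 1.57 ± 0.40 (limma adjusted p = 0.0284, without it 0.167). *Jun* and *Fos*, which are also raised by tissue dissociation, had log2 fold changes of 0.58 ± 0.27 and 0.62 ± 0.38 and passed in neither fit. Of 15 p53 targets and growth arrest genes, 1 rose without the block, and with it 2 rose and 1 fell, with a median of 0.45. *Gadd45b*, a stress sensor that binds growth arrest and kinase partners, went from 240, 454 and 1164 to 1283, 2834 and 8385 and rose by 2.68 ± 0.50 (limma adjusted p = 0.0393, with the block 0.00687). *Gadd45g* rose with the block by 0.83 ± 0.18, and *Sesn1*, a sestrin induced by p53, fell with the block by 0.72 on the log2 scale, with groups that did not overlap (1552 to 2094 against 830 to 1410). Of 16 cell cycle genes, none passed without the block (3 had an unadjusted p under 0.05), and *Ccnd1*, which encodes cyclin D1, rose with it by 1.54 ± 0.36.

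Amino acid supply was represented by *Slc7a1*, the transporter of arginine and lysine. It went from 105, 128 and 180 to 392, 477 and 581, with a narrow spread on both sides and a wide gap between them, and rose by 1.82 ± 0.21 (limma adjusted p = 0.00174, with the block 0.00108). Of the 17 genes of the unfolded protein response and Atf4, it was the 1 that rose without the block. With the block *Asns*, the asparagine synthetase, and *Ddit3*, the factor Chop, rose as well, from medians of 114 to 365 and of 370 to 674. The list's median was 0.26.

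Matrix, protease and adhesion genes held 5 of the 51 higher calls. Of 25 such genes, 5 rose without the block and 6 with it, 24 had a positive log2 fold change, and the median was 1.10. *Timp1*, an inhibitor of metalloproteinases, went from 31, 55 and 245 to 270, 702 and 809 without overlap and rose by 3.08 ± 0.44 (limma adjusted p = 0.00805, with the block 0.00108). *Tnc*, the matrix glycoprotein tenascin C, went from 9, 32 and 106 to 189, 353 and 661, also without overlap, and rose by 3.56 ± 0.58 (limma adjusted p = 0.0178, with the block 0.00312). *Adamts1*, a protease that cuts proteoglycans, went from 748, 1026 and 1679 to 1758, 3316 and 5156 and rose by 1.56 ± 0.26 (limma adjusted p = 0.0178, with the block 0.00233). The expected level from other sorted cells was at most 32.0 for *Tnc*, 219 for *Timp1* and 1342 for *Adamts1*. After subtraction *Tnc* passed with the block. *Timp1*, which was above 2 times its expected level in 5 of 6 libraries, had a larger log2 fold change of 4.97 and an adjusted p of 0.0589, and *Adamts1* had 3.33 and 0.20. Larger values after subtraction can come from negative results raised to the floor of the scale.

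*Spp1*, the secreted ligand osteopontin that binds Cd44 and integrins, behaved differently. It had 4657, 35019, 42687, 10839, 1685 and 1624 normalized counts in ipsilateral replicates 1 to 6 and 340 to 1962 contralaterally. The 4 high libraries were those with more microglial RNA, the expected level spanned 496 to 50397, and the measured level was above 2 times the expected one in 1 of 6 libraries. The log2 fold change of 3.38 ± 0.82 passed in neither fit (limma adjusted p = 0.144, with the block 0.0515), although the gene was higher in 6 of 6 pairs, and it passed with the pool as a random effect (0.0297). After the expected levels were subtracted the log2 fold change turned to -0.62 (limma adjusted p = 0.88 with the block). The microglial markers that set the share had a median log2 fold change of -0.58 in microglia, so the share rests on markers that changed. *Mmp12*, the macrophage metalloelastase, was at 0 in all 6 contralateral libraries and above 0 in 5 of 6 ipsilateral ones, with a mean of 216 ± 244 (SD, n = 6), at least 65.8-fold higher than the level of 3 reads in 1 library. No ipsilateral library exceeded 2 times its expected level. The part of microglial RNA in *Spp1* and *Mmp12* was not tested.

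Kallikrein genes, picked after their values were seen, were measured in a row on chromosome 7. *Klk9*, a secreted serine protease, had 0, 0 and 21 against 52, 212 and 938 and rose by 6.60 ± 0.97 (limma adjusted p = 0.00811, with the block 0.00266). *Klk7*, from 43811294 to 43816359 on the plus strand, was at 0 in all contralateral libraries and at 10 to 205 ipsilaterally, at least 28.5-fold higher than the level of 3 reads. Its adjusted p was 0.00805, and the expression threshold kept it from being called. *Klk6*, known for cutting myelin proteins, had 110, 282 and 968 against 643, 1499 and 4472 and rose with the block by 2.50 ± 0.57 (limma adjusted p = 0.00108, without it 0.11). *Klk6* is also made by oligodendrocytes, whose markers were abundant here. The sum of those markers was higher ipsilaterally in 3 of 6 pairs, and *Klk6* in 6 of 6. The part of oligodendrocyte RNA in *Klk6* was not tested.

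Cell shape genes included 2 of the 9 calls kept without any single pool. *Tubb6*, a beta-tubulin, went from 103, 176 and 450 to 690, 1520.5 and 2116 without overlap and rose by 2.90 ± 0.36 (limma adjusted p = 0.00251, with the block 0.000556). *Rhoj*, a small GTPase that shapes the actin skeleton, went from 402, 596 and 864 to 1482, 2414 and 4035, again without overlap, and rose by 2.02 ± 0.26 (limma adjusted p = 0.00328, with the block 0.000581). Of 21 cytoskeleton and membrane repair genes, 1 rose without the block and 4 with it, with a median of 1.01. *Flna*, the actin linker filamin A, rose with the block by 0.79 ± 0.36, but its level was above 2 times the expected one in 2 of 6 libraries.

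Secreted proteins that were near 0 in the contralateral hemisphere stood out by size. *Fga*, the fibrinogen alpha chain, is known as a clotting protein made by the liver. It had 2 reads in all 6 contralateral libraries together and 1167 in the 6 ipsilateral ones, a ratio of 612 once scaled by the reads of each side (exact 95% interval 169 to 5063, counting error only), and its normalized counts were 0, 0 and 2 against 38, 202 and 280. Every ipsilateral library was above every contralateral one, the expected level was at most 1.32, and the limma adjusted p was 0.000135 (0.000806 with the block). The partner chains did not accompany it: *Fgb* had at most 1 and *Fgg* at most 13 in any ipsilateral library. *Ucn2*, the peptide hormone urocortin 2, had 0, 0 and 8 against 49, 290 and 1434 and rose by 7.52 ± 0.89 (limma adjusted p = 0.00178, with the block 0.00108). Of 19 trophic factors it was the 1 that rose without the block. With the block *Gdf15*, a stress cytokine, and *Hbegf*, a ligand of the EGF receptor, rose too, by 4.38 ± 0.94 and 0.91 ± 0.34, and the list's median was 0.86. *Il33*, an alarmin that glia release on damage, was picked after its values were seen, went from 1936, 4824 and 8986 to 5425, 12334 and 39179 with some overlap and rose with the block by 1.59 ± 0.51 (limma adjusted p = 0.00414, without it 0.328). *Il11*, a cytokine picked in the same way, had 0, 0.5 and 5 against 10, 79 and 266 (limma adjusted p = 0.0111) and missed the expression threshold.

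The promoters of *Fga* and of *Gldn*, which encodes the secreted protein gliomedin and rose without the block, are shown because both genes went from near 0 to a clear level. *Gldn* had 0, 2.5 and 30 against 73, 180 and 279, without overlap (limma adjusted p = 0.0235, with the block 0.0107). Both are from RefSeq on GRCm38, plus strand, *Fga* at chr3:83025903-83026202 and *Gldn* at chr9:54286236-54286535. Capitals mark, in *Fga*, a STAT motif (TTCNNNGAA) at -234 to -226 and a C/EBP motif (TTGCNNAA, on the minus strand) at -135 to -128, and in *Gldn* an AP-1 motif at -72 to -66. The RefSeq start of *Fga* lies 77 bases from the gene start in the deposited table.
Fga: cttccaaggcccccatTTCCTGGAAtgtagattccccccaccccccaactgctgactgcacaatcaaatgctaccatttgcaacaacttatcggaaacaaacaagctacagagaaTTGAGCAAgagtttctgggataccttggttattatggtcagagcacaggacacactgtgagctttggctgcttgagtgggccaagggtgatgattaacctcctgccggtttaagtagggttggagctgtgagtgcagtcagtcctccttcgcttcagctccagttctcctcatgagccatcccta
Gldn: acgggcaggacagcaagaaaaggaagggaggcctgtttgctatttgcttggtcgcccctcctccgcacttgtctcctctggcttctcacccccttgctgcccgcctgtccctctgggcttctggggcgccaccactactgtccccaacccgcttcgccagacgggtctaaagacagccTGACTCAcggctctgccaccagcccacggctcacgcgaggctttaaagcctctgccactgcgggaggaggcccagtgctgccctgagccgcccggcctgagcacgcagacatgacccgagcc

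In several other groups few or no members passed. Of 22 hypoxia and glycolysis genes, none passed without the block (3 had an unadjusted p under 0.05), the vasodilator peptide gene *Adm* rose with it by 1.61 ± 0.46, and the median log2 fold change was 0.04. *Aldoc*, a glycolytic enzyme of astrocytes, spanned 77734 to 204660 contralaterally and 49561 to 139558 ipsilaterally (limma adjusted p = 0.707). Of 13 heat shock genes, none passed without the block (5 under an unadjusted p of 0.05), and the small chaperone *Hspb1* rose with it by 2.13 ± 0.48. The list's median was 0.41. Of 10 metallothionein and iron genes, the zinc and iron transporter *Slc39a14* rose in both fits, from 384, 595 and 1212 to 1212, 1578 and 1828, and the median was 0.42. None of 17 cholesterol synthesis genes passed in either fit (3 and 5 under an unadjusted p of 0.05 without and with the block), with a median of 0.18, and *Srebf2*, their master factor, was flat at 3614 to 6593 against 3553 to 6611. All 14 interferon response genes had a positive log2 fold change with a median of 1.05, but none passed without the block (6 under an unadjusted p of 0.05) and 1, *Ifit1*, passed with it, at 1.62 ± 0.64.

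**Figure D4:**
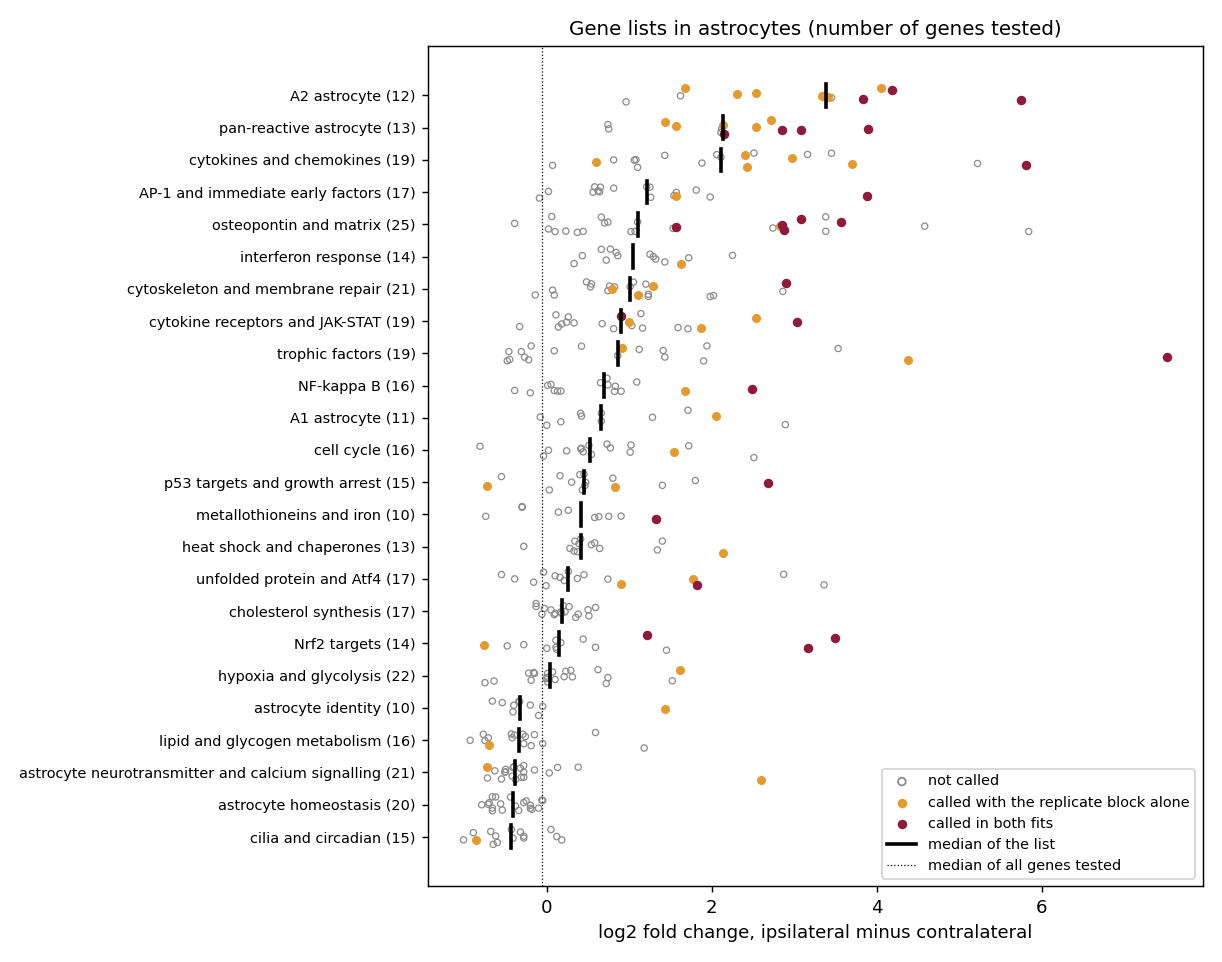
Log2 fold change, ipsilateral minus contralateral astrocytes, of the members of each of 24 gene lists, with 1 point per gene and a mark at each list's median. The A2, pan-reactive and cytokine lists have medians of 3.38, 2.13 and 2.11, whereas the homeostasis list lies wholly below 0 with a median of -0.41.

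Functions of resting astrocytes had small negative values that mostly did not pass. None of 20 homeostasis genes passed in either fit (3 without and 10 with the block had an unadjusted p under 0.05), all 20 had a negative log2 fold change, and the median was -0.41. Over all 15264 genes tested, 1416 without and 2684 with the block had an unadjusted p under 0.05, and 8484 log2 fold changes were negative. Of the 20 homeostasis genes, 6 were lower in 6 of 6 pairs, against 6.59% of all genes tested. The summed counts of the 10 astrocyte identity genes were higher ipsilaterally in 1 of 6 pairs, and that list's median was -0.33. A smaller share of astrocyte RNA and less RNA of these genes per astrocyte cannot be told apart here. Of 21 genes of neurotransmitter and calcium signalling, none passed without the block (3 under an unadjusted p of 0.05). With it the glycine transporter *Slc6a9* fell by 0.73 on the log2 scale and the glutamate receptor *Grm5* rose, and the median was -0.38. *Grm5* went from 1, 28.5 and 59 to 72, 99 and 205 without overlap. Of 16 lipid and glycogen genes, *Fads2*, a fatty acid desaturase, fell with the block by 0.70 and the median was -0.34. Of 15 cilia and circadian genes, *Ift27*, a part of the transport complex of cilia, fell with the block by 0.86, with 1698 to 3732 contralaterally, 987 to 1691 ipsilaterally and no overlap, and the median was -0.43. Without the block neither of these lists had a call, with 4 members each under an unadjusted p of 0.05.

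The single gene that fell in both fits was *2310022B05Rik*, a gene with little known function. It went from 1257, 1733 and 2132 to 655, 820 and 1130 without overlap and fell by 1.00 ± 0.18 (limma adjusted p = 0.0361, with the block 0.0117). The other 50 fell with the block alone, so that their fall rests on the pairing. All 51 were lower in 6 of 6 pairs, in 7 of them the groups did not overlap (0.242% of all genes tested), and their median log2 fold change was -0.89. *Nat8f1*, an acetyltransferase-like gene with close copies on chromosome 6, went from 1683, 1843 and 3512 to 433, 792 and 1713 and fell by 1.26 (limma adjusted p = 0.00496, without the block 0.153). Its neighbour *Nat8f4* fell by 1.03, and reads shared by such copies were not counted by the authors. *Nkain4*, which encodes a protein that binds the sodium pump, went from 5700, 6426 and 15012 to 1958, 3450 and 6742 and fell by 1.03 (limma adjusted p = 0.012 with the block, without it 0.259). *Shisa2*, *Fam198a*, *Usp2* and *Mro* fell by 1.45, 1.01, 0.76 and 0.98. *Myl9*, a smooth muscle myosin light chain, and *Tmem204*, an endothelial gene, fell by 1.21 and 1.20. Their expected levels reached 2048 and 225, and their measured levels were above 2 times the expected ones in 0 and 2 of 6 ipsilateral libraries.

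Among the falls were targets of Notch, picked after their values were seen. *Hes5*, a repressor that Notch induces, went from 850, 2068 and 3336 to 342, 868 and 2433 with overlapping groups and fell with the block by 1.13 (limma adjusted p = 0.0273). *Heyl*, a related repressor, went from 739, 1092 and 1739 to 176, 542 and 932 and fell by 1.26 (limma adjusted p = 0.0341). *Dtx1*, a regulator of Notch, went from 1595, 2342 and 3159 to 708, 1354 and 2377 and fell by 0.75 (limma adjusted p = 0.0298). None of these 3 passed without the block or kept its call whichever pool was left out, and the related *Hes1*, *Hey1* and *Notch1* passed in neither fit, with log2 fold changes of -0.44 ± 0.29, -0.18 ± 0.25 and -0.18 ± 0.31. *Agt*, the angiotensin precursor made by astrocytes, went from 42169, 48544.5 and 110285 to 13451, 31627.5 and 54814 and fell with the block by 0.97 (limma adjusted p = 0.0463). The promoter of *Hes5* is printed because it holds the RBPJ motif through which Notch acts (TTCCCAC, capitals, at -226 to -220 and, on the minus strand, at -83 to -77), from RefSeq on GRCm38, chr4:154960673-154960972, plus strand.
Hes5: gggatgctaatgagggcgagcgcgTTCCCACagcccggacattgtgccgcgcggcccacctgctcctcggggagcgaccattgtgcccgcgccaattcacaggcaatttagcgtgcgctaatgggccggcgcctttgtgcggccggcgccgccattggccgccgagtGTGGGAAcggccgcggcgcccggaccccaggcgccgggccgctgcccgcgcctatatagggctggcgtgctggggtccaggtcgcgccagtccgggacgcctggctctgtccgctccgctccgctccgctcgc

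The motifs were then counted over all promoters. RefSeq held 11052 of the 15264 genes by symbol, including 37 of the 51 that rose without the block, 136 of the 191 that rose with it and 33 of the 51 that fell with it. Each of 7 motifs was searched on both strands. AP-1 (TGANTCA) was in 4.89% of all promoters, in 7 of the 37 (18.9%), in 17 of the 136 (12.5%) and in 1 of the 33 (3.03%). The 7 were *Il1rn*, *Gpnmb*, *Srxn1*, *AA467197*, *Cacng5*, *Slc7a1* and *Gldn*. The core of the antioxidant response element was in 14.8% of all promoters, in 5 of the 37 and in 21 of the 136 (15.4%). STAT was in 6.65% of all promoters and 12 of the 136 (8.82%), *Gfap* among them, and C/EBP in 8.08% and 14 of the 136. The CRE motif (TGACGTCA) was in 3.28% and 2 of the 136, and the hypoxia core (ACGTG) in 24.8% and 35 of the 136. RBPJ was in 6.31% of all promoters and in 4 of the 33 that fell (12.1%). No test was made on these shares.

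The pools differed in how far apart their hemispheres were. The median log2 difference of the 51 genes that rose without the block was 3.18 in the pairs of replicates 1 to 4 and 2.43 in those of replicates 5 and 6, and for the 191 that rose with the block it was 2.0 and 1.62. For the 51 genes that fell it was -1.06 and -0.59. Of the lists, the pan-reactive genes had medians of 2.6 and 1.52, and the homeostasis genes -0.58 and -0.08. The smaller differences went with higher contralateral levels in replicate 6, such as 1628 for *Hspb1*, 1400 for *Tnfrsf12a* and 352 for *Fosl1*, and with the lower microglial share of replicates 5 and 6 given above. *Ptx3* had 727 in contralateral replicate 6 without a smaller difference, with 4.06 in replicates 1 to 4 and 4.44 in replicates 5 and 6. Their part in the difference was not tested. On replicates 5 and 6 alone limma called no gene, with 604 at an unadjusted p under 0.05.

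**Figure D5:**
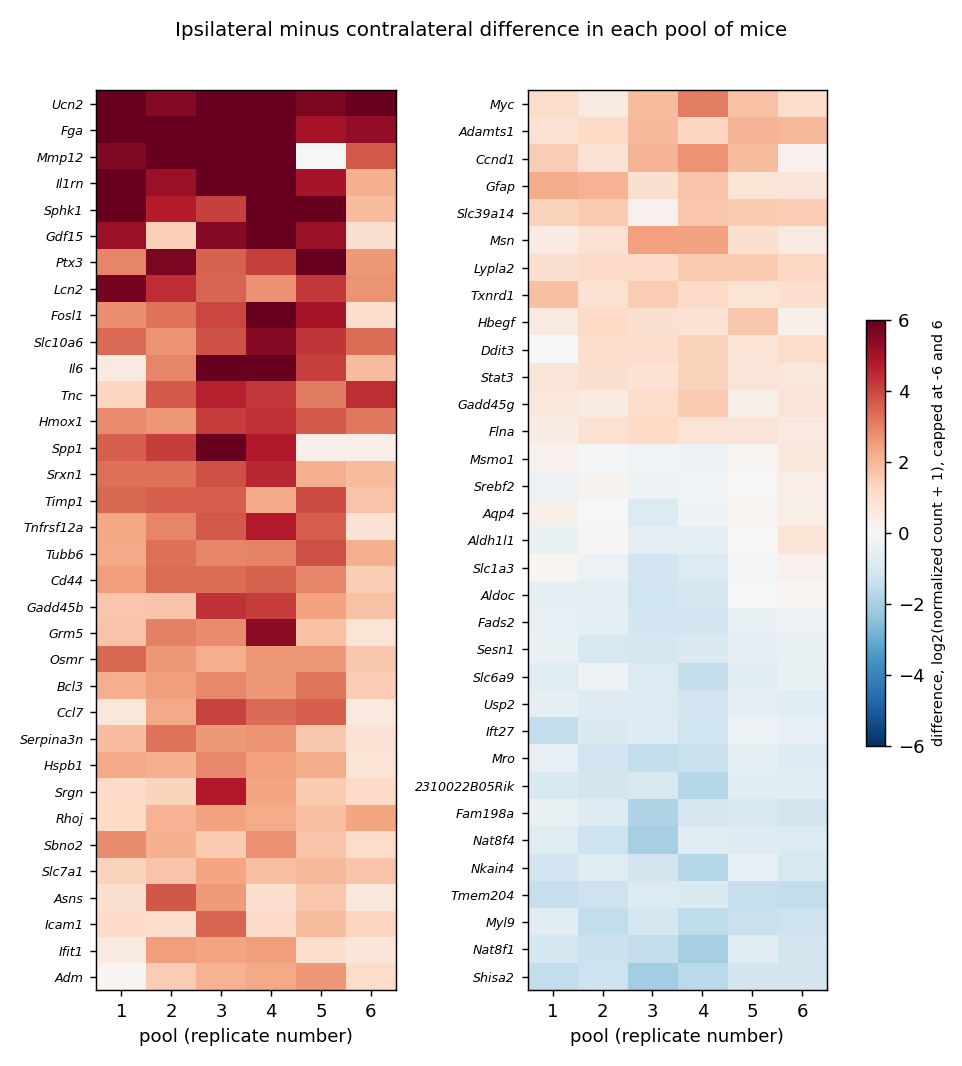
Log2 difference, ipsilateral minus contralateral, of the 67 genes named by rule (rows) in each of the 6 pools (columns), with colours capped at 6 in either direction. *Hmox1*, *Srxn1* and *Slc7a1* are higher in all 6 pools, and the medians of the genes that rose are smaller in the columns of replicates 5 and 6.

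The last question is whether the response was particular to astrocytes, which was tested as the stroke effect in astrocytes minus the average effect in endothelial cells, pericytes and microglia over all 48 libraries. Genes entered this test by their mean in the astrocyte libraries alone. Those near 0 in astrocytes were thus left out, whereas those near 0 in the other cells were not. The difference was positive for 23 genes (0.151%) and negative for 7 (0.0459%). Its SE pools the spread of all groups, so it can be too small for genes at or near 0 in the other cell types. The 23 include *Tnfsf11*, *Glycam1* and *Gm12349*, with ipsilateral means of 0 in all 3 other cell types. For *Fga* these means were 3.17 in microglia, 2.33 in endothelial cells and 0 in pericytes. *Fga* differed by 6.51 ± 0.64 on the log2 scale, with an average of 0.46 in the other cells. As its SE can be too small, the p of this difference is not given. *Slc7a1* differed by 1.83 ± 0.31 (limma adjusted p = 0.00159), with an average of -0.01. That average joined effects of either sign, -0.88 in endothelial cells, 0.24 in pericytes and 0.61 in microglia. *Slc10a6* differed by 3.52 ± 0.68, *Gadd45b* by 2.79 ± 0.50, *Tnfrsf12a* by 2.41 ± 0.43 and *Hspb1* by 2.17 ± 0.48, and all 4 had averages between -0.11 and 0.61 in the other cells. For *Slc10a6* the average of 0.31 held 1.86 in endothelial cells, 1.26 in pericytes and -2.19 in microglia, so that a higher ipsilateral level was not limited to astrocytes. The test compared changes, not levels. Mean ipsilateral counts of *Hspb1* were 1552 in astrocytes, 6234 in endothelial cells, 6730 in pericytes and 423 in microglia. In the same order *Gadd45b* had 3937, 2604, 3915 and 4758, and *Tnfrsf12a* had 2669, 2746, 1693 and 1226. High ipsilateral levels of these genes were thus not particular to astrocytes. The values for pericytes and microglia go with the column names, where the labels conflict.

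Further genes of this test were picked after their values were seen. *Tnfsf11*, the cytokine RANKL, was at 0 in all contralateral astrocyte libraries and at 10 to 38 ipsilaterally, at least 7.14-fold higher than the level of 3 reads. Its effect was 0.00 in all 3 other cell types, and groups at 0 have no spread, so the p of the difference is not given and the difference of 4.43 is a description. Within astrocytes the limma adjusted p was 0.00811. *Gldn* differed by 5.27 ± 0.96, an SE that can be too small because its ipsilateral mean was 0 in microglia and endothelial cells and 22.3 in pericytes. The immediate early factors *Egr2* and *Egr1* differed by 2.50 ± 0.56 and 1.84 ± 0.41, although neither of the 2 factors passed within astrocytes. For 2 glycolytic enzymes the difference was negative: *Gapdh* had -0.15 in astrocytes and an average of 0.97 in the other cells, a difference of -1.12 ± 0.19 (limma adjusted p = 0.00184), and *Pgk1* had 0.01 against 1.03, a difference of -1.02 ± 0.22 (0.0183). *Hmox1*, *Srxn1*, *Lcn2* and *Stat3* were not among the 30 genes, so that their response was not shown to differ from that of the other cell types.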

How the data were processed

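RNA from FACS-sorted astrocytes was amplified from about 250 pg with SMART-Seq HT, sequenced on a NextSeq500 and processed by the authors with Trimmomatic 0.38, STAR 2.6.1d (mm10, GRCm38), featureCounts 1.6.3 without multi-mapping reads or reads in several genes, and DESeq2 1.18.1 size factors, per the labels and methods. The deposited values are a score: DESeq2-normalized counts that the authors rounded to whole numbers, so no count model was used.

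The 12 astrocyte columns, matched to samples by description, were compared on log2(value + 1) with limma 3.58.1 (R 4.3.3, two-sided, eBayes with trend, Benjamini-Hochberg over all 15264 genes), which had a mean of at least 10. The main fit had no block, and the SE printed with fold changes within astrocytes is from it. The alternative adds the replicate number as a block, since same-numbered libraries share a pool of 3 to 4 mice. Deviations from the group mean correlated at 0.0188 to 0.658 within numbers (mean 0.38) and at -0.0759 between them. The fits were tested on simulated data with known changes.

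Genes were named by rule: the 12 lowest p-values among higher calls with all 6 pairs higher, the 10 lowest among genes that fell with the block in all 6 pairs, every gene that fell without it, up to 3 called members of each of 24 gene lists (the 2 highest where none was called), and fixed astrocyte and osteopontin pathway genes. The members and lists were chosen with earlier results of these data known. RNA expected from other cell types, 11 marker lists, promoters (RefSeq) and 7 motifs are described with the results. Depth, 10500000 to 16200000 reads on genes, was read from the spacing of the values, so that 3 reads amount to 2.11 to 3.33 normalized counts. Python 3.11.15 was used for summaries.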

Additional observations from a re-analysis of the deposited data

Results flagged for a closer look

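In 8 of 134 groups of 6 libraries 1 library lay far from the others, and chance alone flags about 1 in 20 groups. In contralateral astrocytes *Fga* had 2 normalized counts in replicate 5 and 0 in the others, and *Ucn2* had 8 in replicate 2 and 0 in the others. Contralateral replicate 1 had 15012 counts of *Nkain4* against 5700 to 6595 in the others, and contralateral replicate 5 had 15423 of *Msmo1*, an enzyme of cholesterol synthesis, against 9605 to 10795. Contralateral replicate 6 had 1628 of *Hspb1* against 177 to 371, and 1580 of *Cd44* against 152 to 356. In ipsilateral astrocytes, replicate 1 had 15027 of *Serpina3n* against 22782 to 25540, and replicate 6 had 891 of *Ifit1* against 161 to 264.

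For 6 named genes the stroke effect in astrocytes was larger than the average effect in the other 3 cell types by the limma test of the difference itself. The difference on the log2 scale was 6.51 for *Fga*, 3.52 for *Slc10a6*, 2.79 for *Gadd45b*, 2.41 for *Tnfrsf12a*, 2.17 for *Hspb1* and 1.83 for *Slc7a1*.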

How the results depend on the processing

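Of 2139 values of the 67 named genes under 32 alternatives, 1709 kept their direction and side of the threshold, 256 passed that had not, 152 no longer passed and 22 changed direction, none of them past the threshold on either side. *Spp1* turned from 3.38 to -0.62 with expected levels subtracted, with or without the block. The rest lay near 0: *Srebf2* turned to 0.03 and *Aqp4* to 0.00 when rescaled, *Srebf2* to 0.05 under quantile normalization and 0.21 on replicates 5 and 6, where *Aldoc*, *Slc1a3*, *Aqp4* and *Aldh1l1* had 0.04, 0.09, 0.24 and 0.43, and *Msmo1* turned to -0.08 on replicates 1 to 4. With 1 replicate left out *Msmo1* spanned -0.03 to 0.17, *Srebf2* -0.12 to 0.04 and *Aqp4* -0.14 to 0.10. With the block, *Srebf2* had 0.04 without replicate 1 and 0.02 without replicate 3, *Aqp4* 0.10 without replicate 3, and *Msmo1* -0.03 without replicate 6. The counts moved more. Higher and lower calls numbered 51 and 1 without and 191 and 51 with the replicate block, and 182 and 35 with it as a random effect. The higher share was 98.1% and 78.9%. Other settings gave, higher and lower, 33 and 1 with a pseudocount of 0.1, 31 and 1 with a mean of at least 50, 96 and 16 when the 48 libraries were fitted together, 35 and 0 without the trend, 109 and 6 with replicates 1 to 4 against 5 and 6 as a covariate, 48 and 0 on replicates 1 to 4 alone, 105 and 3 with oligodendrocyte markers and 108 and 5 with microglial markers as covariates, and 38 and 1 with expected levels subtracted. No filter gave 36 and 1. Settings with the block, some chosen after seeing the data, gave 105 and 19 with that subtraction, 209 and 37 rescaled, 246 and 86 with a pseudocount of 10, and 75 and 7 on replicates 1 to 4. Limma on replicates 5 and 6 alone gave 0 and 0 (604 at an unadjusted p under 0.05). Leaving out 1 replicate number gave 12 to 60 higher calls (12 without replicate 2, 60 without replicate 6) and 0 to 1 lower ones. With the block, leaving out replicates 1 to 6 in turn gave 172 and 29, 63 and 2, 109 and 13, 78 and 5, 84 and 7, and 128 and 23. For the difference from the other cell types, 23 larger and 7 smaller became 19 and 3 with a pseudocount of 0.1, 50 and 27 with 10, 10 and 2 with a mean of at least 50, 13 and 5 on replicates 1 to 4, 31 and 9 with the replicate block, and 9 to 22 and 1 to 6 without 1 replicate. Taking the labels of the conflicting libraries from their titles left 23 and 7. The cause of these shifts was not tested, beyond the fewer samples or genes that some settings hold.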

Other observations

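The genes of this section were picked after their values were seen. Ligands of the EGF receptor family and a further growth factor moved beyond the trophic list. *Btc*, which encodes betacellulin, had 0, 12 and 30 normalized counts (lowest, median and highest) contralaterally and 32, 129 and 880 ipsilaterally, and rose with the block (limma adjusted p = 0.018, without it 0.122). *Tgfa*, the transforming growth factor alpha gene, had 745, 987 and 1197 against 1206, 1584 and 3232 and rose with the block by 0.96 ± 0.24 (limma adjusted p = 0.0143, without it 0.154). *Hgf*, the hepatocyte growth factor gene, had 94, 172 and 235 against 246, 290 and 581 and rose with the block by 1.09 ± 0.29 (limma adjusted p = 0.0395, without it 0.199). In all 3 genes the groups did not overlap, and their expected levels from other sorted cells were at most 2.6, 89.8 and 3.30.

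A further 3 genes are also known from neurons, and they are single values, not a group: none of the 10 neuronal markers passed in either fit, with 1 at an unadjusted p under 0.05 with the block and none without it. *Syt6*, a synaptotagmin, had 0, 2 and 81 against 83, 148 and 258 and *Vgf*, a neuropeptide precursor, had 2, 7.5 and 37 against 56, 84.5 and 326. *Cacng5*, an auxiliary subunit of glutamate receptors, had 114, 262 and 433 against 471, 762 and 1086. All 3 rose in both fits without overlap (limma adjusted p = 0.0408, 0.031 and 0.0424 without the block). The summed neuronal markers were higher ipsilaterally in 5 of 6 pairs, and their part in these genes was not tested.

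Some genes known from blood and vessel cells were among those that rose in both fits. *Fcgr2b*, an inhibitory antibody receptor, had 84, 384 and 429 against 773, 1565 and 1870, and *Lyve1*, a marker of border macrophages and lymphatic vessels, had 0, 0.5 and 38 against 38, 247 and 633. The monocyte and neutrophil sums were higher in 6 of 6 pairs, and their part in these genes was not tested.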
